A study of Homo sapiens with 6 samples.

Results

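Levels of the core circadian clock genes were taken from the RNA sequencing of cultured human podocytes. The 10 genes were fixed by symbol (PER2, PER3, CRY1, CRY2, NR1D1, NR1D2, ARNTL, CLOCK, DBP and BHLHE40), and all 10 had a row among the 20745 genes of the deposited table. The cells were AB 8/13, a conditionally immortalized human podocyte line (cihPod) that divides at a permissive temperature and was differentiated at 37 °C before use. There were 2 groups, 3 vehicle cultures and 3 cultures given levamisole at 1 µM, all lasting 24 h. The sample labels place both groups in serum-free medium, but complete medium is named for the vehicle cultures in the study's methods, so the medium of that group is uncertain. A single line was used, with different passages as replicates according to the methods. Levamisole was developed against parasitic worms and is prescribed to children with nephrotic syndrome to limit steroid use.

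In mammalian cells the clock is a transcriptional feedback loop. The proteins of CLOCK and ARNTL (BMAL1) pair and switch on genes through E-boxes, among them the PER and CRY genes, whose proteins return to the nucleus and repress the pair. The nuclear receptors encoded by NR1D1 and NR1D2 (REV-ERB alpha and beta) repress ARNTL and compete with the ROR receptors, and DBP drives further rhythmic genes through D-boxes. The loop runs in most tissues, the kidney included, and serum and glucocorticoid hormones are known to reset it in cultured cells.

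The study compared levamisole with vehicle. The deposited table gives 1 value per gene that is not part of the authors' own comparison, the base mean, which is the authors' mean of the normalized read counts over the libraries of their fit. No value per culture was analysed here, so the effect of levamisole on the clock genes was not tested, no error can be given for a level, and the depth of each library is unknown. How many libraries entered the mean is not given in the sources used here, and vehicle and levamisole cultures are not told apart in it. No base mean occurred more than once in the table, also among the 3744 genes under 1, so libraries other than the 6 of these groups may have entered the mean. All cultures had the same treatment time, so the phase or amplitude of a rhythm was not measured either.

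The letters through which these factors are known to act were looked up first in the promoters of the genes, since they show which of the 10 genes carry the motifs of the others. RefSeq promoter windows (GRCh38.p14, 250 bases before to 50 bases after a transcription start) matched all 10 genes, ARNTL under its current name BMAL1, and gave 15 windows because 5 genes have a pair of starts. The E-box (CACGTG), the E'-box (CACGTT) and the D-box (TTATGTAA) were searched on both strands, and the stretches that hold them are printed 5′ to 3′ on the strand of the gene with the motifs in capitals. No matches of these motifs overlapped in the windows.

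NR1D2, second start, chr3:23945907-23946041, plus strand: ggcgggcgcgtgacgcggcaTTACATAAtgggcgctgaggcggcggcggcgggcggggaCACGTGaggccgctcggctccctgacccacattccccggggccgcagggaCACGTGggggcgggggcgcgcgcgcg
BHLHE40, chr3:4979187-4979217, plus strand: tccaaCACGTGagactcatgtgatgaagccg
PER2, chr2:238288782-238288827, minus strand: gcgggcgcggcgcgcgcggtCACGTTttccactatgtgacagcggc
CRY1, chr12:107093613-107093658, minus strand: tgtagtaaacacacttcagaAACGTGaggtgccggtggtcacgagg
CRY2, second start, chr11:45847267-45847312, plus strand: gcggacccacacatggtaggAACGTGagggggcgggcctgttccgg
NR1D1, chr17:40100732-40100777, minus strand: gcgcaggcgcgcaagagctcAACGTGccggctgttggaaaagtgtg
CLOCK, second start, chr4:55546094-55546139, minus strand: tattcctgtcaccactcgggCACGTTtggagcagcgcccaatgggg
PER3, first start, chr1:7784094-7784141, plus strand: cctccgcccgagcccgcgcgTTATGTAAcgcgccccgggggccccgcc

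The canonical E-box was found in 2 of the 10 genes, NR1D2 and BHLHE40, and 8.77% of all genes with a RefSeq window hold it in at least 1 window. NR1D2 carried it 2 times, with the first base at -155 and -105 from its second start, and BHLHE40 carried it at -245, close to the outer edge of the window. The E'-box was found in 5 genes (PER2, CRY1, CRY2, NR1D1 and CLOCK), beside 6.44% of all genes. Counting either motif, 7 of the 10 genes had a match, beside 14.5% of all genes. The 10 genes include known E-box targets, and they had 15 windows, beside 35116 windows for 27305 genes in all. The shares are thus not a like comparison, and no test was made.

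The D-box, bound by DBP and its relatives, was found in PER3 at -177 and in NR1D2 at -194, and 1.13% of all genes hold it. The AGGTCA half-site that the REV-ERB and ROR receptors share with many other nuclear receptors was found in 2 genes, CRY2 and ARNTL, beside 16.5% of all genes. DBP had no match to any of these motifs. The share of G and C in the 15 windows had a median of 70.3% and ran from 46.3% to 81.0%. It was above the median of all RefSeq windows, 58.7%, in 13 of the 15 and below it in 2, the first windows of CRY2 and ARNTL. These matches describe letters in a window of 300 bases and say nothing of binding in these cells, and sites farther away were not searched.

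**Figure D1:**
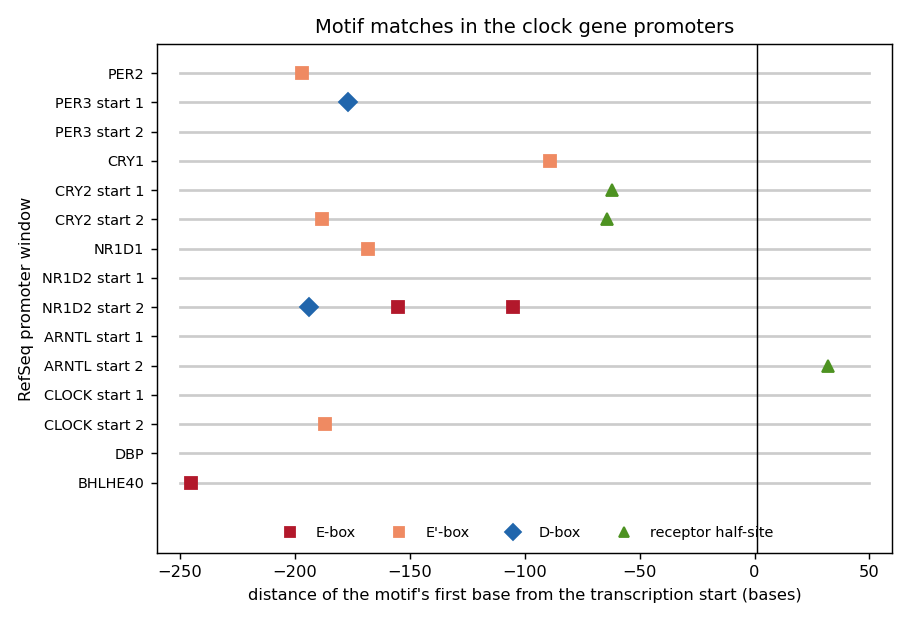
Motif matches in the RefSeq promoter windows of the 10 clock genes. Each grey line is 1 window, the x axis is the distance in bases from the transcription start (vertical line), and symbols mark the first base of each match; the E-box lies in NR1D2 and BHLHE40, while the E'-box lies in PER2, CRY1, CRY2, NR1D1 and CLOCK.

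Levels spanned a wide range. The authors' base mean was highest for BHLHE40 at 924 and lowest for DBP at 2.57, a ratio of 360.0. A base mean of at least 5 was taken as detected. The number follows the study's methods, but there it is a minimum of reads in each sample, whereas here it was set on a mean of normalized counts. Of the 10 genes 8 passed it, while CRY2 and DBP did not. Of all genes in the table, 64.3% passed. The median gene among those that passed had a base mean of 82.6, and 3 clock genes, BHLHE40, CLOCK and CRY1, lay above it. That median leaves out the genes under 5, while the 3 are counted among all 10. Of all genes in the table, 63.5% lay below ARNTL at 62.9 and 75.2% below CRY1 at 133, the clock genes on either side of 82.6. So 3 of 10 was close to the share of all genes.

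**Figure D2:**
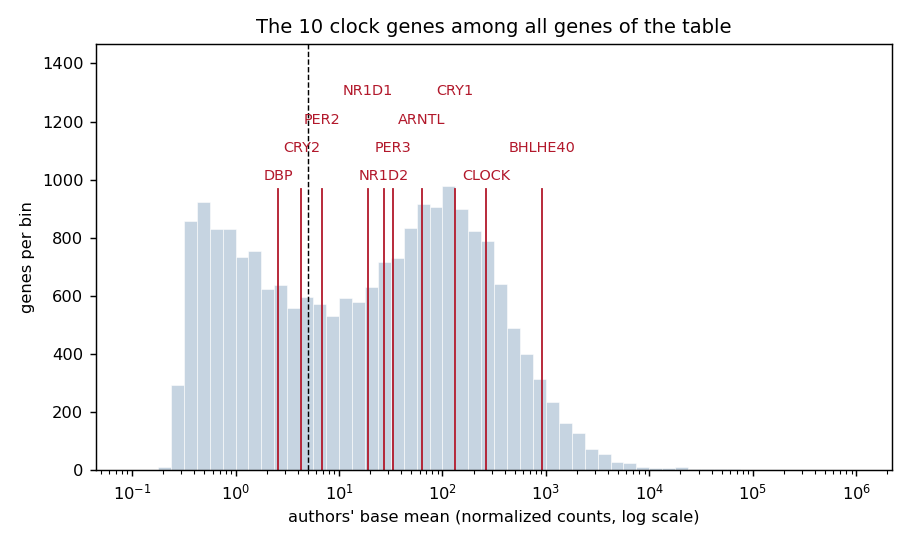
Distribution of the authors' base mean over the 20745 genes of the table (bars, genes per bin, log scale on the x axis), with the 10 clock genes as red lines and the minimum of 5 as a dashed line. DBP and CRY2 lie left of the minimum, and BHLHE40 lies farthest to the right at 924.

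Among the activators, CLOCK (ENSG00000134852, chromosome 4 of GRCh38, 55427903 to 55546909, minus strand) encodes the bHLH-PAS protein that pairs with BMAL1. Its base mean was 266, higher than that of 77.1% of the genes at 5 or more. ARNTL (ENSG00000133794, chromosome 11, 13276652 to 13387266, plus strand), the gene of BMAL1 itself, had a base mean of 62.9, which placed it above 43.2% of these genes. The paralogs that can stand in for them were also detected, NPAS2 at 50.7 and ARNTL2 at 151. All 4 activators thus passed the minimum, beside 64.3% of all genes in the table.

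The repressors were uneven. CRY1 (ENSG00000008405, chromosome 12, 106991364 to 107093549, minus strand), a cryptochrome that blocks the CLOCK and BMAL1 pair, had a base mean of 133 and lay above 61.5% of the genes at 5 or more. Its paralog CRY2 (ENSG00000121671, chromosome 11, 45847118 to 45883248, plus strand) had 4.33. The base mean of CRY1 was 30.6 times that of CRY2, the widest gap of the paralog pairs compared. Of the period genes, whose proteins carry the cryptochromes into the nucleus, PER3 (ENSG00000049246, chromosome 1, 7784291 to 7845177, plus strand) had 33.6 and PER2 (ENSG00000132326, chromosome 2, 238244044 to 238290102, minus strand) had 6.86. PER2 therefore stood just above the minimum, higher than 4.84% of the genes that passed it. PER1, the third period gene, had 21.2, and so lay between PER3 and PER2.

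The REV-ERB receptor genes were both detected. Both were low among the genes at 5 or more but near the median of all genes, 21.8. NR1D2 (ENSG00000174738, chromosome 3, 23945286 to 23980617, plus strand) had a base mean of 27.4 and NR1D1 (ENSG00000126368, chromosome 17, 40092793 to 40100589, minus strand) had 19.0. NR1D2 lay above 26.1% of the genes at 5 or more, and NR1D1 took rank 10670 among all genes of the table. Their competitors were lower, with RORA at 9.05 and RORB at 1.05, and 13.6% of the last 500 exonic bases of RORA are covered by its antisense gene RORA-AS1. Of the last 500 exonic bases of NR1D1, 94.6% are covered on the opposite strand by exons of THRA, a thyroid hormone receptor gene with a base mean of 37.4. The counts of NR1D1 and THRA are separate only if the counting used strand. The study's methods name the default setting of the counting tool, which uses strand, without stating it.

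DBP (ENSG00000105516, chromosome 19, 48630030 to 48637379, minus strand) encodes a PAR bZIP activator whose transcript is among the most rhythmic in many tissues. Its base mean of 2.57 was the lowest of the 10 genes. In its last 500 exonic bases, 94.6% are covered on the opposite strand by exons of SPHK2 (base mean 62.4), so the caution given for NR1D1 holds here too. The related factors HLF and TEF had 2.30 and 6.49. NFIL3, which represses through the same D-box, was higher, at 42.9.

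BHLHE40 (ENSG00000134107, chromosome 3, 4979437 to 4985323, plus strand) encodes DEC1, a bHLH repressor that binds E-boxes and answers to many signals besides the clock. With 924 it lay above 93.7% of the genes at 5 or more and made up 62.5% of the summed base means of the 10 genes. Its paralog BHLHE41 had 144, and the ratio of BHLHE40 to BHLHE41 was 6.40.

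Beyond the 10, 22 other clock genes were examined, of which 19 had a base mean of at least 5 and 3 (RORB, HLF and NOCT) did not. The share of all genes at 5 or more was 64.3%. The 6 kinases and ubiquitin ligase subunits examined, which act on the stability of the clock's repressor proteins, all passed, from BTRC at 50.2 to the casein kinase CSNK1E at 630.0. Its relative CSNK1D had 250.4. Among the 7 cofactors, levels ran from 3.02 for NOCT to 648 for NCOR1, the corepressor that the REV-ERB receptors recruit. Both values are uncertain. TTC19 covers 49.6% of the end of NCOR1 on the opposite strand. In the end of NOCT, 48 of the 441 stretches of 60 bases have a second place in the genome. The same holds for 44 stretches in CSNK1A1, 9 in SIRT1 and 8 in FBXW11, so these values are uncertain too. The median base mean was 30.5 for the 10 genes, 99.1 for the 22 others and 21.8 for all genes of the table. The 22 others include the kinases and ubiquitin ligase subunits, with a median of 238, and the cofactors, with 145.

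**Figure D3:**
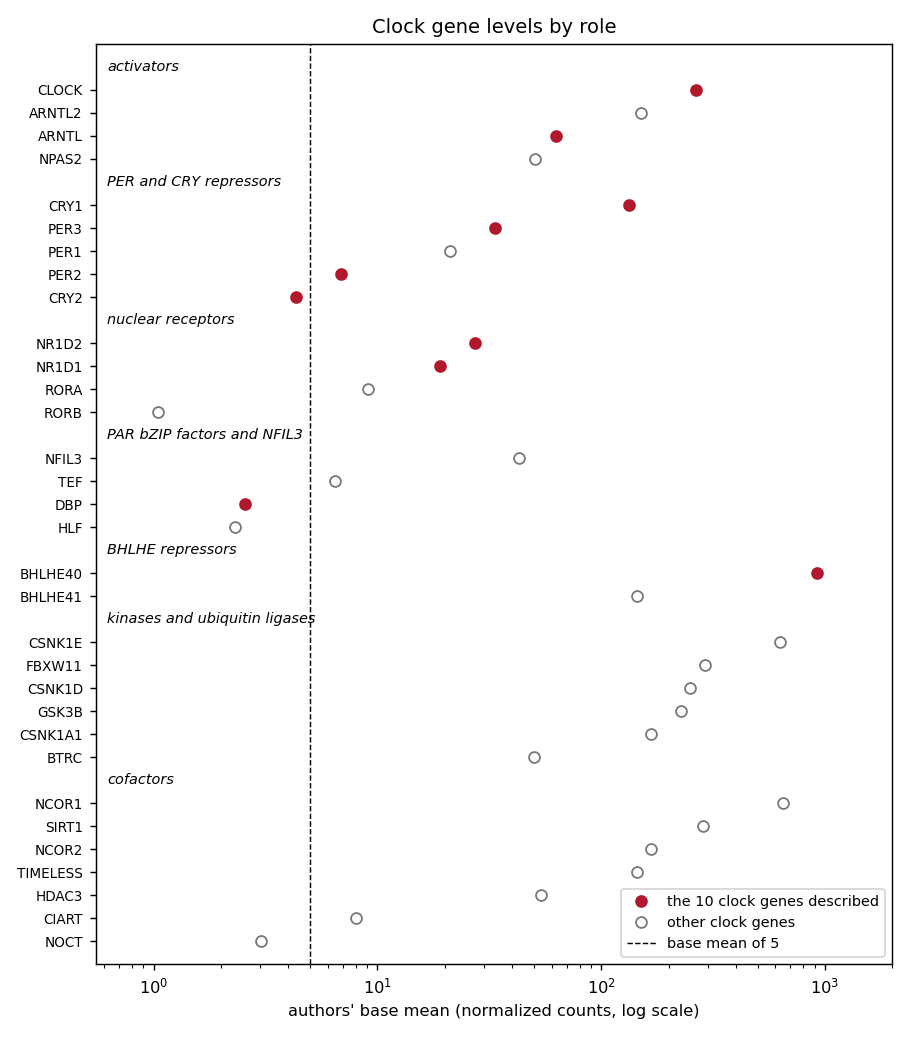
The authors' base mean (normalized counts, log scale) of each clock gene examined, grouped by role, with filled points for the 10 genes described and open points for the others. CRY2, RORB, DBP, HLF and NOCT lie below the dashed minimum of 5. The activators and the 6 kinases and ubiquitin ligase subunits shown lie at 50.2 or higher, and the BHLHE genes at 144 or higher.

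The order of the 10 genes by base mean was BHLHE40, CLOCK, CRY1, ARNTL, PER3, NR1D2, NR1D1, PER2, CRY2 and DBP. The libraries read mostly the 3′ end of transcripts, so the base mean was not divided by length, but the order was repeated per kilobase of the canonical transcript. On that scale BHLHE40 kept place 1 at 293 and ARNTL place 4 at 22.6, and the other 8 genes changed place. BHLHE40, CLOCK, CRY1 and ARNTL were the 4 highest on both scales, and PER2, CRY2 and DBP were the 3 lowest on both. These limits were set after the values were seen, and by base mean the step from ARNTL to PER3, 1.88 times, was smaller than the steps among the 4 highest. Among the 3 lowest the values per kilobase were nearly equal, 1.18 for DBP, 1.07 for PER2 and 1.05 for CRY2. Without an error, neighbours in the order cannot be told apart.

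**Figure D4:**
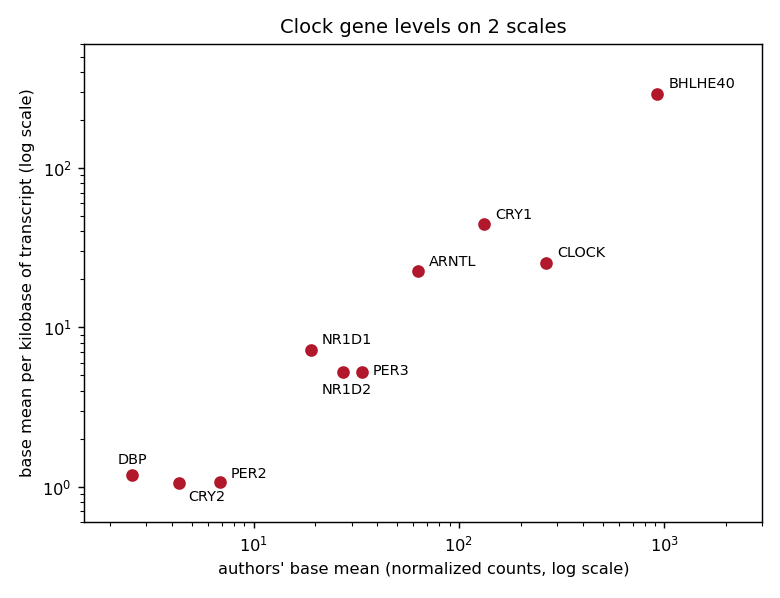
The authors' base mean of the 10 clock genes (x axis, log scale) against the base mean per kilobase of the canonical transcript (y axis, log scale). BHLHE40 lies at the top at 293 per kilobase, and DBP, PER2 and CRY2 lie at the bottom between 1.05 and 1.18.

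No second place in the genome was found for reads from the 3′ ends of the 10 genes. Every stretch of 60 bases, the length of the sequenced read, in the last 500 exonic bases was looked up in GRCh38 on both strands, 441 stretches a gene, and 0 of them had a second perfect match for any of the 10. In NR1D1, 7 of the stretches had no unbroken match because they span a splice junction, so they were not checked in this way. On the same strand, 0% of these ends was covered by exons of other genes. Of the 10, only NR1D1 and DBP had an end covered on the opposite strand, by the genes named with them.

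The 10 genes together took 0.0233% of the summed base means, and 0.0358% when the 22 mitochondrially encoded genes, which held 34.8% of the sum, were left out. The podocyte label was checked against markers. ACTN4, CD2AP and TJP1, which many cell types use, had 14320.5, 929 and 247, whereas WT1 had 6.21, SYNPO 22.8 and PODXL 15.3, PTPRO was under the minimum at 0.333, and NPHS1, the slit diaphragm gene of nephrin, had no row in the table used here. The parietal epithelial markers CLDN1, PAX8 and PAX2 had 2965, 1198 and 114. Of the markers of mesangial, endothelial and leukocyte cells with a row (2, 2 and 3 genes), all were under the minimum, between 0.306 and 4.14. Of the 5 tubule markers, AQP1 had 243, CUBN had 1.22, and LRP2, SLC12A1 and UMOD had no row. In a bulk mean, a low level in every cell and expression by a few cells cannot be told apart.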

How the data were processed

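RNA from 3 vehicle and 3 levamisole cultures had been sequenced with an adapted CEL-seq protocol, whose reads fall mostly near 3′ ends. According to the labels and the study's methods, the authors trimmed reads with Trim Galore 0.4.5, mapped them to GRCh38 with STAR 2.7.5a, counted them with HTSeq 0.11.0 and compared groups with DESeq2 1.22.0. An alignment with BWA is named in the methods as well. The base mean deposited by the authors is a signal in normalized counts, averaged over the libraries of their fit. The other columns hold the authors' own comparison (fold change, standard error, Wald statistic and p-values) and were not used, so no test was made. Depth per sample is unknown.

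Percentiles are the share of genes with a lower base mean. Positions, canonical transcript lengths and 3′ ends came from GENCODE 44 on GRCh38, where 20599 of 20745 identifiers matched; the annotation is later than the authors'. Promoters came from RefSeq. Python 3.11.15, pandas 2.3.3, NumPy 2.4.6 and matplotlib 3.10.9 were used, and the motif search was tested on simulated data. Alternatives were other minimums (1, 10 and 50), other reference genes, a scale per kilobase and a second motif. Named were the 10 members, their paralogs and partners, and listed genes under the minimum. THRA and SPHK2 were named after their overlap was seen. The members and lists were chosen with earlier results of these data known. Results for some listed genes are not reported here.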

Additional observations from a re-analysis of the deposited data

How the results depend on the processing

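No paired analysis was possible because values per culture were not analysed here, and for the same reason fits without single cultures, other normalizations and other count filters were not run. Of the 10 genes, 8 had a base mean of at least 5. The count was 10 at a minimum of 1, 7 at 10 and 4 at 50. With no minimum it was 10 by design, since all 10 genes had a row. Of all 20745 genes, 64.3% passed 5 and 3744 were under 1. For 10 and 50 the nearest guide was a listed gene: 41.2% of all genes lay below RORA at 9.05 and 60.2% below BTRC at 50.2. The 4 of 10 at a minimum of 50 was thus close to the share of all genes. The 3 genes above the median gene became 6 when the median was taken over all genes of the table, since these include the genes under 5. By definition, as many of all genes lie above that median as below it. The count stayed 3 over genes at 10 or more and without mitochondrial genes. The ratio of the highest to the lowest gene was 360.0, and 279 per kilobase. The 2 genes with an E-box, beside 8.77% of all genes, became 7 when the E'-box was counted too, beside 14.5%. In a comparison of paralogs and partners chosen after seeing the data, NR1D2 was 1.44 times NR1D1 by base mean but 0.725 times per kilobase, and ARNTL was 0.417 times ARNTL2 but 1.03 times per kilobase. CLOCK was 4.23 times ARNTL by base mean and 1.13 times per kilobase. These libraries read mostly 3′ ends, so the base mean is the main scale, and division by length may itself shift the ratios. Depth is unknown, so no interval could be given for any level, including the lowest, those of DBP, CRY2 and PER2.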
